A study of Mus musculus with 6 samples.

Results

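Spp1, Cxcr2, C3, Aldh3a1 and Adgre1 are 5 of the 14238 genes measured by RNA sequencing in Ba/F3 cells, and all 5 had enough reads to be tested. They were chosen by name because their levels were lower in cells induced to express the ETV6::FRK fusion than in control cells. The lower level in induced cells is therefore how they were chosen, and it is given here as a description without a test. Ba/F3 is an established mouse cell line, described in the labels as a pro-B line that depends on interleukin-3. All cells, controls included, had been transduced with the fusion, a joined gene of the transcription factor ETV6 and the tyrosine kinase FRK, in a retroviral Tet-On system that doxycycline switches on. The induced group received 500 ng/ml doxycycline and has titles marked DOXp and IL3n. The control group received no doxycycline and has titles marked DOXn and IL3p. Each group has 3 libraries, with RNA taken at 48 h, and the labels do not say whether the 3 cultures of a group were separate experiments, clones or pools. P-values thus reflect only how far these cultures spread. Replicate 1 of each group carries the title prefix EF1, replicate 2 the prefix EF2 and replicate 3 the prefix EFPC, which gives 3 pairs. The labels do not explain these prefixes or the IL3 marks, and doxycycline, the fusion and the IL3 mark change together, so their effects cannot be told apart.

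The 5 genes are best known from myeloid cells, inflammation and aldehyde defence. Spp1 encodes osteopontin, a secreted phosphoprotein that binds integrins and CD44 and acts in adhesion, bone and inflammation. Cxcr2 encodes the G protein-coupled receptor through which neutrophils sense chemokines such as Cxcl1 and Cxcl2. C3 encodes the central component of the complement cascade, which is cleaved into a fragment that tags targets for uptake and a small fragment that signals through the receptor C3ar1. Aldh3a1 encodes a cytosolic aldehyde dehydrogenase that oxidises aromatic and lipid-derived aldehydes and is a known target of the aryl hydrocarbon receptor AHR. Adgre1 encodes the adhesion G protein-coupled receptor known as the macrophage surface marker F4/80.

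RefSeq start regions matched 3 of the 5 genes, Spp1, Cxcr2 and C3. They are shown to place the motifs of candidate regulators that were searched in them. Each is the 250 bases before the annotated start in build GRCm38.p6, written 5′ to 3′ on the gene's strand. The Spp1 region is chr5:104434861-104435110 on the plus strand, that of Cxcr2 is chr1:74153744-74153993 on the plus strand, and that of C3 is chr17:57228137-57228386 on the minus strand. Capitals mark matches to the searched motifs.
Spp1: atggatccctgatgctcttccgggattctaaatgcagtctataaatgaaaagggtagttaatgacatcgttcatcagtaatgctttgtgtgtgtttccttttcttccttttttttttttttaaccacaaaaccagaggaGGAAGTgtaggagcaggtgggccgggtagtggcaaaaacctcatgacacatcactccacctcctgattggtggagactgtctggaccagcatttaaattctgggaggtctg
Cxcr2: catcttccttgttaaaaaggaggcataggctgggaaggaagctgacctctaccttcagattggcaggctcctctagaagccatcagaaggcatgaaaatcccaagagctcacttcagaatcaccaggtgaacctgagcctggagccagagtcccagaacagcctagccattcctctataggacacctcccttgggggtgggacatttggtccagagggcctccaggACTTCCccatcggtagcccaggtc
C3: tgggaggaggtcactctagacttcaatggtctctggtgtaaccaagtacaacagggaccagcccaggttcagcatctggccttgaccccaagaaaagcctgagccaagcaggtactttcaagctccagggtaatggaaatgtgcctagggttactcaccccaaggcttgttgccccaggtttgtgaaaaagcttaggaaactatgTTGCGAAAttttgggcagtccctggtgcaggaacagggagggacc
The search covered both strands for 5 motifs, namely TTCNNNGAA of STAT factors, TGANTCA of AP-1, TTGCNNAA of C/EBP factors, GGAAGT of ETS factors such as ETV6, and GCGTG of AHR. Spp1 holds 1 GGAAGT, at bases -111 to -106 from the start. Cxcr2 holds 1 copy on the other strand, read as ACTTCC, at -24 to -19. C3 holds 1 TTGCNNAA, read as TTGCGAAA, at -45 to -38. No matches overlap, and the windows hold no match to the other motifs. Of 32851 start regions of the same length, 19.74% hold GGAAGT and 9.56% hold TTGCNNAA, while TTCNNNGAA, TGANTCA and GCGTG occur in 7.02%, 6.75% and 28.2%. A match is a description of these letters and not evidence of binding.

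Library totals ran between 31138705 and 43177842 reads in the induced group and between 30970019 and 40179759 reads in the control group. Etv6 stood at 259, 230 and 120 CPM (counts scaled to library size with edgeR's TMM factors) in the induced EF1, EF2 and EFPC libraries and at 86.2, 81.3 and 94.6 CPM in their controls. Frk was not analysed here. Induced replicate 3, of the EFPC pair, stood apart from the other induced libraries. A list of 16 interferon-response genes, 14 of them tested, summed to 7111 and 3676 CPM in induced replicates 1 and 2 and to 303 CPM in induced replicate 3, against 184.5 to 211 CPM in the controls. Pan-hematopoietic markers were present, with 5 of 5 listed genes tested, while of 16 B-lineage genes only Cd79a and Cd79b were analysed, at a sum of 5.75 to 13.8 CPM in induced and 12.3 to 17.0 CPM in control libraries.

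The expression of Spp1 was the highest of the 5 genes in every library on the length-scaled TPM scale, and that of C3 the lowest. Spp1 (gene ID 20750, chromosome 5, 104435111 to 104441053, GRCm38.p6) had 1023, 968 and 1223 reads in induced EF1, EF2 and EFPC cells, against 3153, 3436 and 6983 reads in control replicates 1 to 3. Scaled for depth these were 33.8, 24.4 and 27.5 CPM in induced and 78.6, 109.9 and 192 CPM in control libraries. The induced libraries lay close together, with the highest 1.39 times the lowest, whereas the controls spread 2.44-fold, with the EFPC culture on top. The deposited TPM values were 45.3, 32.4 and 39.5 in induced and 99.6, 127 and 271 in control libraries. Mean TPM was 39.0 ± 6.46 in induced and 166.0 ± 92.2 in control cells (SD, n = 3 each), and the fitted log2 fold change was -2.15. The level of Spp1 stood at the 65.8th to 73.5th percentile of all genes by TPM in induced libraries and at the 88.6th to 96.0th percentile in controls. In bulk RNA, fewer cells that carry a transcript and less transcript per cell cannot be told apart.

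Cxcr2 (gene ID 12765, chromosome 1, 74153994 to 74161246) showed a like picture at a lower level. It had 380, 406 and 280 reads in induced replicates 1 to 3 and 1323, 787 and 2487 reads in control replicates 1 to 3. These correspond to 12.6, 10.2 and 6.31 CPM in induced and 33.0, 25.2 and 68.3 CPM in control libraries. As for Spp1, the EFPC culture was the highest control, but here it was also the lowest induced library. Its TPM was 7.91, 6.39 and 4.25 in induced and 19.7, 13.7 and 45.5 in control libraries, with means of 6.18 ± 1.84 and 26.3 ± 16.9 (SD, n = 3 each). The fitted log2 fold change was -2.12, and it was -1.35 without the EFPC pair (replicate 3 of both groups).

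C3 (gene ID 12266, chromosome 17, 57203967 to 57228136) was the least abundant of the 5 genes. Its reads numbered 83, 130 and 12 in induced EF1, EF2 and EFPC cells, against 368, 385 and 224 in the controls. The depth-scaled values were 2.74, 3.28 and 0.270 CPM in induced and 9.17, 12.3 and 6.15 CPM in control libraries. The EFPC culture was lowest in both groups, and the induced libraries spread 12.1-fold. The 12 reads carry an exact Poisson 95% interval of 6.20 to 21.0 reads, which covers counting error only. TPM stood at 1.02, 1.21 and 0.104 in induced and at 3.22, 6.18 and 2.41 in control libraries, with means of 0.778 ± 0.591 and 3.94 ± 1.99 (SD, n = 3 each). The fitted log2 fold change was -2.14. The authors' TPM and the reads did not move in step for this gene. Control replicate 2 had 1.99 CPM per TPM, against 2.55 and 2.84 in the other controls and 2.60 to 2.72 in the induced libraries.

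Aldh3a1 (gene ID 11670, chromosome 11, 61208510 to 61218418) differed from the others in its order of cultures. It had 112, 102 and 203 reads in induced replicates 1 to 3 and 567, 497 and 347 reads in control replicates 1 to 3. After scaling there were 3.70, 2.57 and 4.57 CPM in induced and 14.1, 15.9 and 9.53 CPM in control libraries. The EFPC culture was thus the highest induced library and the lowest control. TPM was 4.43, 2.92 and 5.81 in induced and 15.7, 16.1 and 12.0 in control libraries, with means of 4.38 ± 1.45 and 14.6 ± 2.23 (SD, n = 3 each). The fitted log2 fold change was -1.86.

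Adgre1 (gene ID 13733, chromosome 17, 57358581 to 57483529) had the smallest difference of the 5 genes. It had 183, 453 and 263 reads in induced replicates 1 to 3 and 598, 583 and 885 reads in control replicates 1 to 3. That is 6.05, 11.4 and 5.92 CPM in induced and 14.9, 18.6 and 24.3 CPM in control libraries. Induced replicate 2 came nearest to the controls, and the highest induced value was 0.767 times the lowest control value. TPM was 3.59, 6.80 and 3.75 in induced and 8.30, 9.50 and 15.3 in control libraries, with means of 4.71 ± 1.81 and 11.02 ± 3.73 (SD, n = 3 each). The fitted log2 fold change was -1.30.

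**Figure D1:**
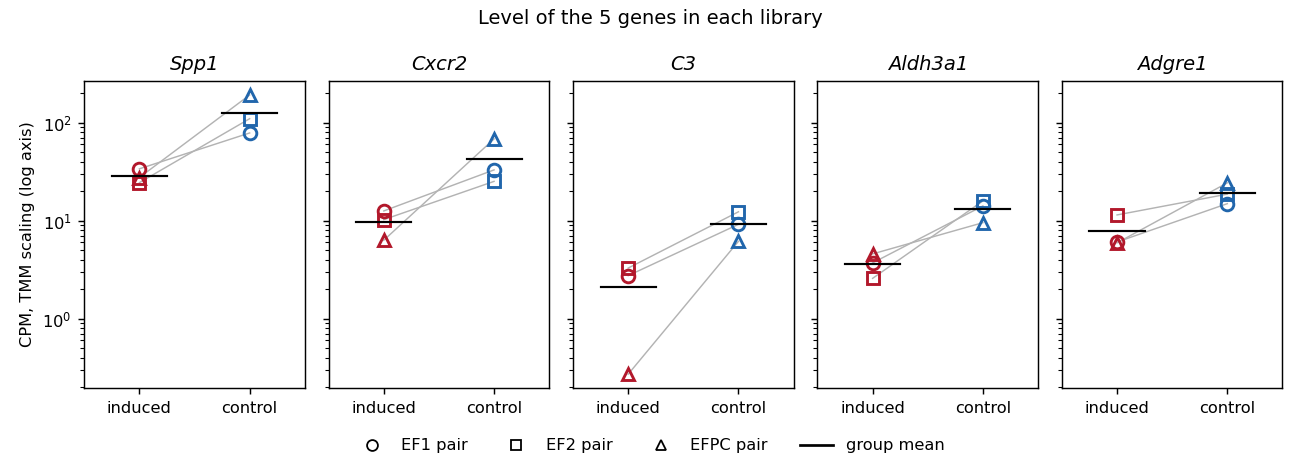
Level of the 5 genes in each library, in CPM on a log axis, with the 3 induced libraries left of the 3 controls, symbols for the pairs, thin lines joining the libraries of a pair and bars for group means. For each gene every induced library lies below every control, and C3 in the induced EFPC library, at 0.270 CPM, is the lowest point.

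For all 5 genes the CPM of every induced library lay below that of every control, which goes with how they were chosen and is no test. The same was true of 13% of the 13260 tested genes, and 25.8% of the tested genes were lower in all 3 pairs. Over all genes tested, edgeR's quasi-likelihood test called 0 lower and 0 higher genes at an adjusted p of 0.05 (0% in either direction), with 2329 genes at an unadjusted p under 0.05. DESeq2 called 351 lower genes (2.65%) and 561 higher genes (4.23%), and with the replicate number as a block 569 lower (4.29%) and 768 higher (5.79%).

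The size of the difference was not the same in the 3 culture pairs. The intervals given for single pairs cover counting error only and leave out the variation between cultures, which the interaction test takes up. For Spp1 the log2 ratio of induced over control CPM was -1.22 in the EF1 pair, -2.17 in the EF2 pair and -2.80 in the EFPC pair, with 95% counting intervals of -1.32 to -1.11, -2.27 to -2.07 and -2.89 to -2.71. For Cxcr2 the EF1 and EF2 pairs were alike at -1.39 and -1.30, and the EFPC pair stood at -3.44 (counting interval -3.62 to -3.26). In that pair Cxcr2 was 10.8 times lower in induced cells, against 2.62 and 2.46 times lower in the EF1 and EF2 pairs.

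C3 split in the same way. Its log2 ratio was -1.74 in the EF1 pair, -1.91 in the EF2 pair and -4.51 in the EFPC pair, where the counting interval of -5.48 to -3.67 reflects the 12 reads. Aldh3a1 went the other way, with -1.93 and -2.63 in the EF1 and EF2 pairs and the smallest difference, -1.06, in the EFPC pair. Adgre1 had -1.30, -0.71 and -2.04 in the EF1, EF2 and EFPC pairs. The EF2 pair was its weakest, and 11.01% of the tested genes had a lower log2 ratio there. By TPM the log2 ratios of the 3 pairs were -1.14, -1.97 and -2.78 for Spp1 and -1.31, -1.10 and -3.42 for Cxcr2. For C3 they were -1.66, -2.36 and -4.54, so that its EF2 pair showed a larger difference by TPM than by reads. Aldh3a1 had -1.82, -2.47 and -1.05 by TPM. Adgre1 had -1.21, -0.48 and -2.03 by TPM. For Spp1, Cxcr2, Aldh3a1 and Adgre1 the EF2 pair showed a smaller difference by TPM than by reads, unlike C3.

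**Figure D2:**
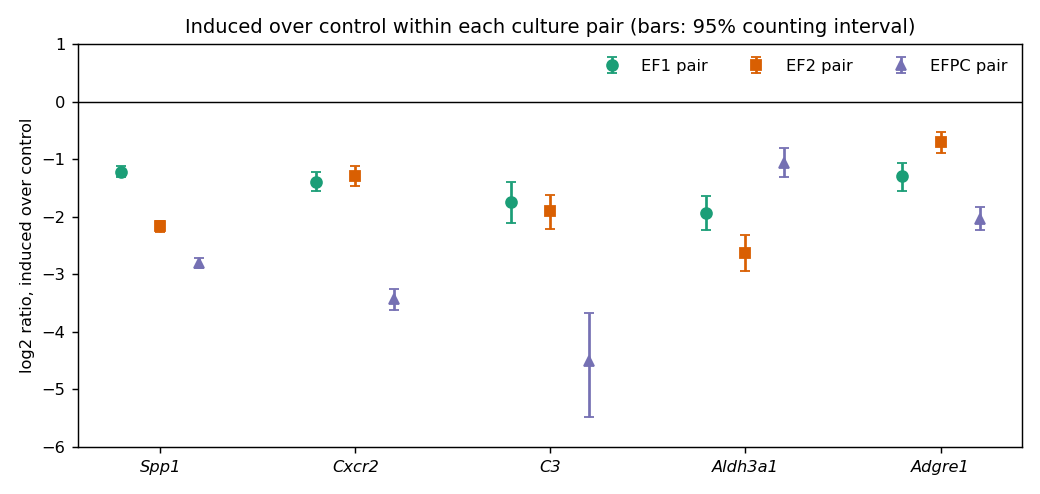
Log2 ratio of induced over control CPM for each gene in the EF1, EF2 and EFPC pairs, with bars for the exact 95% counting interval, which leaves out variation between cultures. All 15 ratios are below 0. The EFPC pair is lowest for Spp1, Cxcr2, C3 and Adgre1 and highest for Aldh3a1.

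Whether the effect differed between the EFPC pair and the EF1 and EF2 pairs was tested by the interaction of the title prefix with induction, fitted over all genes. This contrast is not the one that chose the genes, but it comes from the same 6 libraries. A large difference in the EFPC pair also adds to the fall that chose them. The interaction results of the 5 genes are therefore not free of that choice. EFPC has 1 library per group, which is assumed to vary like the others, and 2 residual degrees of freedom remain. For Cxcr2 the log2 ratio was lower in the EFPC pair by 2.08 on the log2 scale (edgeR adjusted p = 0.0315), and DESeq2 gave a difference of -2.10 ± 0.412 (SE, adjusted p = 2.64e-05). The edgeR call was lost without control replicate 1 (adjusted p = 0.0735) or control replicate 2 (adjusted p = 0.113), while DESeq2 kept it in each of the 4 runs without an EF1 or EF2 library. Background for this contrast was 259 of 13260 genes, or 1.95%, by edgeR and 671 genes, or 5.06%, by DESeq2.

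C3 had the largest difference of the 5 genes, -2.66, and it missed the edgeR threshold (adjusted p = 0.0580) while passing DESeq2 at -2.69 ± 0.707 (SE, adjusted p = 0.00496). With 1 EF1 or EF2 library left out, DESeq2 adjusted p-values of C3 ran between 0.0416 and 0.0851 and passed only without induced replicate 1. Those of edgeR ran between 0.0116 and 0.150 and passed without induced replicate 1 or 2. For Spp1, Aldh3a1 and Adgre1 the differences were -1.10, 1.21 and -1.10, with edgeR adjusted p-values of 0.231, 0.242 and 0.374. None of these 3 passed DESeq2 over all 6 libraries either, although Spp1 passed edgeR without induced replicate 2 (adjusted p = 0.0286) and DESeq2 without control replicate 2 (adjusted p = 0.0377). In the same EFPC pair the interferon-response list was 303 CPM in the induced and 184.5 CPM in the control library. The pair with the lowest interferon sum among induced libraries thus had the lowest log2 ratios of Spp1, Cxcr2, C3 and Adgre1. It had the highest log2 ratio of Aldh3a1. Its induced library also had the lowest Etv6 among induced libraries, at 120 CPM against 94.6 CPM in its control. The part of the interferon response or of the Etv6 level in these differences was not tested.

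**Figure D3:**
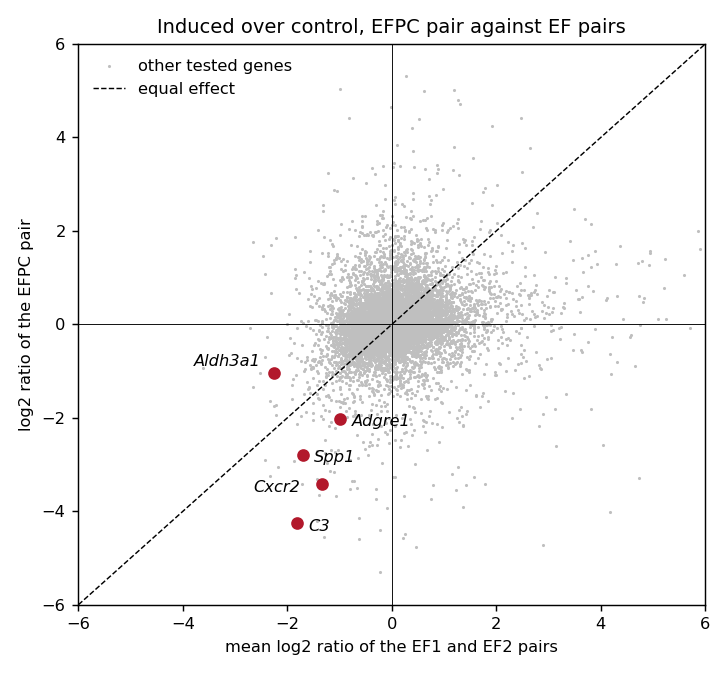
Log2 ratio of induced over control in the EFPC pair (vertical axis) against the mean log2 ratio of the EF1 and EF2 pairs (horizontal axis), from CPM with a prior count of 2, for all tested genes in grey and the 5 genes in red. Genes on the dashed line have the same ratio in both, and 27 genes lie outside the plotted range. Cxcr2 at -1.34 and -3.42 and C3 at -1.81 and -4.26 lie far below the line, and Aldh3a1 at -2.26 and -1.05 lies above it.

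Spp1 and Cxcr2 had the most similar profiles among the 5 genes. Likeness was measured as the root mean square difference between log2 CPM profiles over the 6 libraries, each centred on its own mean, and this distance was 0.372 for Spp1 and Cxcr2. C3 was the farthest from the rest, at 1.12 to 1.34. Among 10094 other genes averaging 2 CPM or more, Podnl1, Serpinb1a and Paqr7 were nearest to Spp1 with distances of 0.264, 0.399 and 0.430. Serpinb1a, which encodes an inhibitor of neutrophil serine proteases, was also nearest to Cxcr2, at 0.193. It had 16.7, 9.56 and 7.21 CPM in induced and 31.1, 23.6 and 64.9 CPM in control libraries. The sialyltransferase gene St3gal2 and the Rap1 GTPase-activating protein gene Rap1gap followed for Cxcr2, at 0.305 and 0.318.

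Nearest to C3 were the cyclin-dependent kinase inhibitor gene Cdkn2b, the organic anion transporter gene Slco2b1 and Ndrg4, at 0.516, 0.532 and 0.583. Cdkn2b had 5.06, 4.57 and 0.856 CPM in induced and 13.2, 12.9 and 5.88 CPM in control libraries, again with the EFPC culture lowest in both groups. Aldh3a1 was nearest to the co-chaperone gene Dnajc12, the prostaglandin reductase gene Ptgr1 and the zinc finger gene Zc4h2, at 0.307, 0.323 and 0.357. Adgre1 was nearest to Dipk1b, the hexokinase gene Hk3 and the RNA-binding protein gene Rbm47, at 0.221, 0.232 and 0.286. These genes were picked for their likeness over libraries that differ by group, so the likeness holds no test.

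The nearest protein-coding genes on the chromosome were also measured. Of the 2 protein-coding genes on each side, those tested were Thoc2l beside Spp1, Tns1 and Arpc2 beside Cxcr2, Tnfsf14, Trip10 and Gpr108 beside C3, and Tnfrsf13b, Usp22 and Aldh3a2 beside Aldh3a1. Gpr108 and the guanine nucleotide exchange factor gene Vav1 were those beside Adgre1. Their log2 fold changes ran between -0.32 for Arpc2 and 1.196 for Thoc2l, and none passed edgeR or DESeq2. With 2.65% of all tested genes called lower and 4.23% higher by DESeq2, and 0% by edgeR, 0 calls among so few genes lie near the background. DESeq2 with the replicate block called Thoc2l and Tns1 higher (adjusted p = 0.00528 and 0.0470), against 5.79% of all tested genes. C3 and Adgre1 lie on the same chromosome with 130444 bases and 3 protein-coding genes between them, Trip10, Gpr108 and Vav1. These 3 had log2 fold changes between -0.27 and 0.21, and as the annotated spans of Trip10 and Gpr108 overlap, their reads may not be fully separate. Aldh3a2, which starts 4998 bases beyond the end of Aldh3a1 and encodes a fatty aldehyde dehydrogenase of the same subfamily, had 53.3, 55.0 and 44.9 CPM in induced and 51.7, 48.8 and 43.5 CPM in control libraries.

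Osteopontin acts on cells through integrins and CD44. Of 10 listed receptor genes 7 were tested, with a median log2 fold change of 0.52, against -0.01 over all tested genes. EdgeR called 0 of them, as of all genes, and DESeq2 called 0 lower and 1 higher, against 2.65% and 4.23% of all tested genes. The gene called was Itga5, an integrin alpha chain that binds fibronectin, with 102, 88.4 and 104 CPM in induced and 72.5, 65.4 and 60.5 CPM in control libraries (log2 fold change 0.57, DESeq2 adjusted p = 0.0133). That call was lost without induced replicate 1 or control replicate 1, at DESeq2 adjusted p-values up to 0.154. The integrin chains Itga4 and Itgav had 0.62 and 0.52 and did not pass (DESeq2 adjusted p = 0.119 and 0.267). Itgb3, the beta chain that pairs with Itgav, had 44.3, 7.67 and 5.74 CPM in induced and 8.62, 5.66 and 1.59 CPM in control libraries, a log2 fold change of 1.86 with induced replicate 1 far above the rest (DESeq2 adjusted p = 0.314). DESeq2 with the replicate block called 3 of the 7 higher, Itga5, Itga4 and Itgb3, against 5.79% of all tested genes. Cd44, a receptor for osteopontin outside the integrins, had 156, 174 and 314 CPM in induced and 153, 154 and 149 CPM in control libraries (DESeq2 adjusted p = 0.324).

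Cxcr2 belongs to a family of chemokine receptors. Beside Cxcr2, 6 of the 23 listed receptors were tested, with a median log2 fold change of 0.535 and 1 negative value. EdgeR called 0, and DESeq2 called 0 lower and 1 higher, where 2.65% lower and 4.23% higher is the background. The gene called was Ccrl2, a chemerin-binding receptor that does not signal like a classical chemokine receptor. It had 54.1, 30.3 and 6.69 CPM in induced and 6.65, 8.92 and 5.11 CPM in control libraries (log2 fold change 2.14, DESeq2 adjusted p = 0.00927). Without induced replicate 1 or 2 or control replicate 1 it was not called (DESeq2 adjusted p up to 0.211). Cxcr4, the receptor for Cxcl12, had 55.9, 88.5 and 262 CPM in induced and 76.8, 94.6 and 56.3 CPM in control libraries, and Ccr4 had 27.2, 33.3 and 8.79 CPM in induced and 11.2, 9.05 and 11.8 CPM in control libraries. Ccr2, the monocyte chemokine receptor, had a log2 fold change of 0.23 and, like C3, was lowest in the EFPC culture in both groups, at 19.6 CPM in the induced and 22.7 CPM in the control library. Cxcr1, the nearest relative of Cxcr2, and the ligand genes Cxcl1, Cxcl2, Cxcl3, Cxcl5 and Ppbp were not analysed here.

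Among the ligands and signalling partners of Cxcr2, 13 of 20 listed genes were tested, with a median of -0.09, and DESeq2 called 1 lower and 0 higher while edgeR called 0, against a DESeq2 background of 2.65% lower. This gene was Arrb2, a beta-arrestin that ends receptor signalling and takes receptors into the cell. Arrb2 had 72.2, 66.7 and 67.5 CPM in induced and 121, 103 and 113 CPM in control libraries, a log2 fold change of -0.71 (DESeq2 adjusted p = 0.000352, and 0.0631 without control replicate 1). The regulators of G protein signalling Rgs2 and Rgs18 had -0.62 and -0.41, and the G protein alpha subunit Gnai2 had -0.28 (DESeq2 adjusted p = 0.348, 0.418 and 0.495).

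Most of the other complement genes had a positive log2 fold change. Beside C3, 14 of the 40 listed genes were tested, with 4 negative values and a median of 0.475, against -0.01 over all tested genes. EdgeR called 0, and DESeq2 called 3 higher and 0 lower, against a background of 4.23% higher and 2.65% lower. C5ar2, a second receptor for the complement anaphylatoxin of C5, had 10.8, 5.17 and 13.1 CPM in induced and 1.82, 0.128 and 2.72 CPM in control libraries (log2 fold change 2.63, DESeq2 adjusted p = 0.0121). C4a had 9.52, 10.8 and 2.52 CPM in induced and 2.02, 2.30 and 2.17 CPM in control libraries (1.81, DESeq2 adjusted p = 0.00949), and its near-identical copy C4b was not analysed here. The regulator Cd46 had a log2 fold change of 1.02 (DESeq2 adjusted p = 0.0178). Each of these calls was lost in 3 or 4 of the 6 runs that left out 1 library, with DESeq2 adjusted p-values up to 0.216, and in each case without induced replicate 1 and without control replicate 1.

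The receptor of C3 and a partner of its convertase had negative log2 fold changes. C3ar1, the receptor for the small C3 fragment, had 4.86, 4.69 and 20.9 CPM in induced and 17.0, 14.1 and 41.6 CPM in control libraries. It was lower in all 3 pairs, but the EFPC culture was the highest in both groups, opposite to C3. Its log2 fold change of -1.25 did not pass without the block (DESeq2 adjusted p = 0.235) and passed with it (DESeq2 adjusted p = 1.07e-06). Cfp, which encodes properdin, a stabiliser of the complement convertase, had -1.201 (DESeq2 adjusted p = 0.0680, and 0.00432 with the block). DESeq2 with the block called 4.29% of all tested genes lower. EdgeR with the block called neither C3ar1 nor Cfp (edgeR adjusted p = 0.133 for each). The complement receptor chains Itgam and Itgb2 had -0.07 and 0.28. Cfb and Cfd, which act with C3 in the alternative pathway, were not analysed here.

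Aldh3a1 is 1 of a family of enzymes. Beside Aldh3a1, 8 of the 21 listed family members were tested, and edgeR and DESeq2, with or without the block, called 0 of them, which is near the DESeq2 background of 2.65% lower and 4.23% higher. Their median log2 fold change was -0.15, with 5 negative values. The lowest was -0.45 for Aldh7a1, followed by -0.25 for the mitochondrial enzyme gene Aldh2, -0.21 for Aldh9a1 and -0.19 for Aldh4a1. Genes of the AHR and NRF2 pathways, which control Aldh3a1 and other enzymes of aldehyde and oxidant defence, had a median of 0.04 over 15 tested of 23 listed, and neither test called any, again near the background. Arnt, the partner of AHR, had 77.4, 77.8 and 82.4 CPM in induced and 65.9, 62.6 and 76.8 CPM in control libraries, and Ahr was not analysed here. Nqo1, another enzyme gene under both pathways, had 3.87, 3.83 and 10.2 CPM in induced and 6.45, 5.18 and 5.41 CPM in control libraries. Prdx1, Gsta4, Tiparp and Slc7a11 had -0.67, -0.66, 0.58 and 0.55 (DESeq2 adjusted p = 0.134, 0.374, 0.111 and 0.677). With the block, where 4.29% of all tested genes were lower, DESeq2 called 2 of the 15 lower, Prdx1 (adjusted p = 0.0118) and Pgd (adjusted p = 0.0181), a gene of the pentose phosphate pathway.

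Of 23 listed adhesion G protein-coupled receptors, 9 were tested beside Adgre1, with a median of 0.16. EdgeR and DESeq2 called 0 of the 9, near the background. The largest difference was 2.66 for Adgrd1, with 14.5, 9.71 and 0.563 CPM in induced and 1.47, 1.95 and 0.494 CPM in control libraries (DESeq2 adjusted p = 0.161, and 0.00683 with the block). Adgrg5, Adgrg1 and Adgrl1 had -0.63, 0.21 and 0.17. The macrophage marker genes had no common direction. Of 23 listed 8 were tested, with a median of -0.14, and their sum was 100.5 to 303 CPM in induced and 122 to 255 CPM in control libraries. DESeq2 called 1 of the 8 lower, against 2.65% of all tested genes, the calcium-binding protein gene Aif1, at 0.694, 0.479 and 0.0901 CPM in induced and 1.196, 2.17 and 1.76 CPM in control libraries (log2 fold change -2.04, DESeq2 adjusted p = 0.0441, up to 0.250 with 1 library left out and lost in 4 of the 6 runs). Cd68 and Lyz2, a lysosomal protein and a lysozyme of macrophages, stayed below 6 CPM in every library and had -0.545 and -0.56. Fcgr1, the high-affinity Fc receptor, had 82.9, 76.7 and 1.35 CPM in induced and 22.8, 23.4 and 15.1 CPM in control libraries. Csf1r was not analysed here. Whether a change in macrophage-like cells had a part in the values of Adgre1 was not tested.

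Cxcr2 is a marker of neutrophils as well. Of 20 other listed neutrophil markers 6 were tested, 0 had a negative log2 fold change, and edgeR and DESeq2 called 0 of them, near the background. Their sum was 122 to 199 CPM in induced and 116 to 132 CPM in control libraries. Lcn2, Ngp, Prtn3 and Ncf1 had 4.19, 1.97, 0.27 and 0.11 on the log2 scale (DESeq2 adjusted p = 0.0849, 0.240, 0.693 and 0.902). Of the 19 listed myeloid transcription factors 11 were tested, with a median of 0.095. DESeq2 called 1 of the 11 higher, against 4.23% of all tested genes. It was Runx1, a core regulator of blood cell formation, with 150.4, 154 and 182 CPM in induced and 99.5, 90.4 and 101 CPM in control libraries (log2 fold change 0.74, DESeq2 adjusted p = 0.000259, at most 0.0322 in the 6 runs without 1 library). The immediate early genes Egr2, Fos and Jun had 2.05, 1.89 and 1.43 and did not pass DESeq2 (adjusted p = 0.0630, 0.131 and 0.0572).

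**Figure D4:**
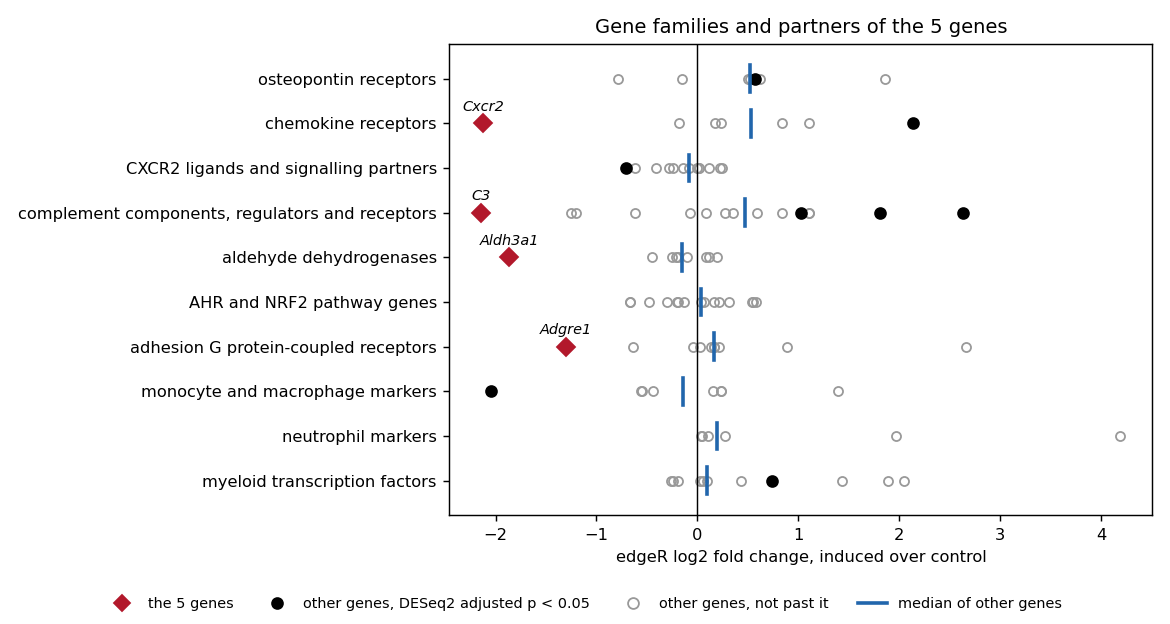
EdgeR log2 fold change of induced over control for the genes of the lists of families, partners, myeloid markers and myeloid transcription factors. Chosen genes that belong to a plotted list are red diamonds, and Spp1, which belongs to none, is not shown. Other genes called by DESeq2 are black dots, other genes open circles and the median of the other genes a blue bar. The hematopoietic, B-lineage and interferon-response lists are not plotted, the last with a median of 5.965. The plotted chosen genes lie at -2.12 for Cxcr2, -2.14 for C3, -1.86 for Aldh3a1 and -1.30 for Adgre1, which reflects how they were chosen. In the plotted lists the medians of the other genes lie between -0.15 and 0.535.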

How the data were processed

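The authors deposited 1 table with raw read counts per gene and TPM values for 6 libraries made with a stranded mRNA kit, per the labels' protocols. The submitters' processing notes name HISAT2, DESeq2 and mm10. The counting program, its annotation, its use of strand and its treatment of reads shared by related genes are not stated in the sources used. All 14238 genes have at least 1 read in every library. A further 12 per-library columns were not used. Counts were tested in R 4.3.3 with edgeR 4.0.16 (quasi-likelihood test, TMM scaling, filterByExpr, 13260 genes kept, Benjamini-Hochberg adjustment over all of them, threshold 0.05), with the group as the only term. DESeq2 1.42.0 was the alternative, and the comparison of induced with control libraries by both was tested on simulated data. The simulated data held no library set apart from its group and no pairing, so they do not cover the spread seen here. The interaction was not simulated. A prior count of 2 was added for log2 CPM.

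The genes and lists were chosen with earlier results of these data known. In each list the text names up to 4 tested genes with the largest absolute log2 fold change at a mean of at least 1 CPM, the genes DESeq2 called, and fixed receptors and partners, and for each of the 5 genes the 3 nearest profiles. Pgd and the interaction results of single list genes were named after their values were seen, and neighbouring genes were taken by position. Lists got no test of their own. Pairing by replicate number was checked on deviations from the group means. Their correlation over genes was 0.174, 0.342 and 0.352 for the same-numbered libraries. For different numbers it was 0.099 and 0.149 between EF1 and EF2 libraries, and between -0.397 and -0.183 where an EFPC library took part. The numbers were taken to pair the libraries, though the check sets EF1 and EF2 apart only weakly. Positions are from RefSeq on GRCm38.p6, the same assembly as mm10. Intervals cover counting error only.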

Additional observations from a re-analysis of the deposited data

Results flagged for a closer look

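Among the chosen genes, Cxcr2 differed between the EFPC pair and the EF1 and EF2 pairs in the log2 ratio of induced over control, by -2.08 (edgeR adjusted p = 0.0315). Named genes of the lists that differed in the same test were the chemokine receptor genes Ccr4 (-2.01, edgeR adjusted p = 0.0336) and Cxcr4 (2.465, edgeR adjusted p = 0.0315) and the cystine transporter gene Slc7a11 (-2.55, edgeR adjusted p = 0.0288). Fcgr1 differed by -5.26 (edgeR adjusted p = 0.00133) and Ncf1, a subunit of the phagocyte oxidase, by -1.59 (edgeR adjusted p = 0.0325). The immediate early genes Egr2 and Fos differed by -3.37 and -5.00 (edgeR adjusted p = 0.0330 and 0.00914). Among list genes not otherwise named, the complement protease gene C1ra differed by -3.17 (edgeR adjusted p = 0.00621), and so did 8 of the 14 tested interferon-response genes, Irf7 and Usp18 among them at -4.83 and -5.94 (edgeR adjusted p = 0.00621 each). The cytokine receptor gene Csf2rb of the hematopoietic markers differed by -1.60 (edgeR adjusted p = 0.0421). C1ra, Irf7, Usp18 and Csf2rb were named after their values were seen. Over all tested genes 1.95% passed this test. Each value rests on 1 EFPC library per group. The result of Cxcr2 is also not free of its choice for a fall in these libraries, to which the EFPC pair adds. Its edgeR call was lost without control replicate 1 or control replicate 2.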

How the results depend on the processing

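The 5 genes had a negative log2 fold change under each of the 22 alternatives, between -2.54 and -1.69 for Spp1, -2.50 and -1.35 for Cxcr2, -2.61 and -1.46 for C3, -2.26 and -1.49 for Aldh3a1 and -1.69 and -0.94 for Adgre1. They were chosen for their fall, and every induced library lay below every control, so the sign was all but fixed. The kept sign is therefore no test. The shift exceeded 1 SD of the replicates only for Cxcr2 without replicate 3 of both groups (-1.35). This SD is each gene's own, within groups on the log2 CPM scale, and ran from 0.40 for Aldh3a1 to 1.37 for C3. The same shift was thus judged less strictly for C3 than for the others. With the replicate block edgeR gave -2.07, -2.02, -2.53, -1.87 and -1.35 for Spp1, Cxcr2, C3, Aldh3a1 and Adgre1. Counts of called genes depended on the tool. EdgeR called 0 lower and 0 higher genes, also with the block, with median-ratio scaling and without the filter, while DESeq2 called 351 and 561, and 569 and 768 with the block. With 1 library or pair left out, edgeR called between 0 and 844 lower and between 0 and 1300 higher genes: 273 and 619 when induced replicate 3 was dropped, 844 and 1300 when the EFPC pair was dropped, and 0 otherwise. DESeq2 called 123 lower and 218 higher genes without induced replicate 1, 115 and 199 without induced replicate 2, 986 and 1173 without induced replicate 3, 62 and 175 without control replicate 1, 198 and 353 without control replicate 2, and 538 and 877 without control replicate 3. The cause was not tested. For the EFPC pair against the others, edgeR called 259 genes and DESeq2 671. Without 1 EF1 or EF2 library edgeR called between 24 (control replicate 2) and 766 (induced replicate 2), and DESeq2 called 315 and 493 without induced replicates 1 and 2, and 698 and 400 without control replicates 1 and 2. C3, with 12 reads in 1 library, had the fewest reads and the widest counting interval.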
